A study of Homo sapiens with 18 samples.

Results

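The BCL2 family decides whether a cell starts mitochondrial apoptosis. Its transcripts were followed for 10 genes, taken by symbol from the 26249 genes of the deposited tables: the survival genes MCL1, BCL2, BCL2L1 and BCL2A1, the effectors BAX and BAK1, and the BH3-only genes BCL2L11, BBC3, PMAIP1 and BID. All 10 had a row in each of the 18 libraries, and all 10 passed the filter on low values and were tested. RNA came from cultured cells with the labels XG1 and AMO1, both given as human multiple myeloma, a cancer of plasma cells. They were kept for 6 h in DMSO, the solvent, or in 100 or 1000 nM of the compound titled YKL, a covalent inhibitor of CDK7, the kinase of the transcription factor TFIIH. The groups were XG1 in DMSO, XG1 at 100 nM, XG1 at 1000 nM, AMO1 in DMSO, AMO1 at 100 nM and AMO1 at 1000 nM, with 3 libraries each. The title of the series speaks of CDK7 inhibition in resistant myeloma lines, so the comparisons ask how each line's transcripts respond. No drug-sensitive line was analysed here.

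Survival proteins of the family hold BAX and BAK1 in check. BH3-only proteins bind the survival proteins, and some also activate BAX and BAK1, which then open the outer mitochondrial membrane and release cytochrome c. MCL1 protein turns over fast, and plasma cells and many myelomas depend on it. PUMA, the protein of BBC3, and NOXA, that of PMAIP1, are made from genes that stress-response factors can switch on. MYC-type factors bind the E-box, and factors of the ATF family bind the cyclic AMP response element (CRE).

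The promoters of 3 members are shown to give the sequence beside the RNA data: BBC3, the member whose response differed between the lines, PMAIP1, the member with the lowest adjusted p in a comparison with DMSO, and BAX, picked after the motif counts were seen. RefSeq's promoter table (GRCh38.p14) held 9 of the 10 members. Each window runs 5′ to 3′ on the gene's strand from 250 bases before the start to 50 after it. Capitals mark the E-box CACGTG and the CRE half-site TGACG or its reverse complement CGTCA, which can overlap.
BBC3, chr19:47232618-47232917, minus strand: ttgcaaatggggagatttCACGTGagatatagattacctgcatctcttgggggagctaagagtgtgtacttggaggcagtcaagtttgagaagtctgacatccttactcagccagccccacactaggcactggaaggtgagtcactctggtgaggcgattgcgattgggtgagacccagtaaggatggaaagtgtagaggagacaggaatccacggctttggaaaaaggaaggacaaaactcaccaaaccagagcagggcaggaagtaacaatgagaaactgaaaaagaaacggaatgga
PMAIP1, chr18:59899746-59900045, plus strand: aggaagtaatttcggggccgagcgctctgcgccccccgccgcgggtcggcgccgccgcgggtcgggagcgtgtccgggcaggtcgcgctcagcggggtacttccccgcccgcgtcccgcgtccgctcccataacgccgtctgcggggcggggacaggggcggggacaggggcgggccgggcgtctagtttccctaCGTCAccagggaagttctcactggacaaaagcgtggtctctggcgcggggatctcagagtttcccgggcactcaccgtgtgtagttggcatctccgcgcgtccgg
BAX, chr19:48954625-48954924, plus strand: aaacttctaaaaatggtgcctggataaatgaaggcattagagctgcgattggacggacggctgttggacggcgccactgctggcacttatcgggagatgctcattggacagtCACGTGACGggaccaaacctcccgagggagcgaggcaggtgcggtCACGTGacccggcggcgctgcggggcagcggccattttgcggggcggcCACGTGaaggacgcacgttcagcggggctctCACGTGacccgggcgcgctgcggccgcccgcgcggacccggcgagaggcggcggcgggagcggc

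The BBC3 window held 1 E-box and 0 CRE half-sites. The PMAIP1 window held 0 E-boxes and 1 CRE half-site. In the BAX window there were 4 E-boxes and 1 half-site, which overlaps an E-box. Of 35116 promoter windows of the same length, 7.26% held an E-box on either strand, 0.0142% held 4 or more, and 24.6% held the half-site. These are matches of letters and show no binding.

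Whether the libraries match their labels was checked with marker genes. Of 10 plasma cell markers, 1 was at 10 FPKM (reads scaled to transcript length and library size) or more in every XG1 library and 9 in every AMO1 library, and 5 and 0 were below 1 FPKM throughout. Their summed level was 44.4 to 75.9 FPKM in XG1 and 4808 to 7249 FPKM in AMO1. Of 12 erythroid markers, such as globin and glycophorin genes, 9 were at 10 FPKM or more in every XG1 library and 0 in every AMO1 library. Summed, they came to 3763 to 4512 FPKM in XG1 and 3.74 to 30.5 FPKM in AMO1. The libraries labelled XG1 thus go against that label, and "XG1" below means only the label; every result for XG1, and every difference between the lines, rests on them. T cell markers summed to at most 2.45 FPKM in any library. Of 5 myeloid markers, 1 was at 10 FPKM or more in every XG1 library, and the sum was 19.9 to 38.6 FPKM in XG1 and at most 1.54 FPKM in AMO1. Of 6 stromal and epithelial markers, 2 were at that level in every XG1 library, and the sum was 79.2 to 110 FPKM in XG1 and at most 5.55 FPKM in AMO1. Their part in the results was not tested.

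Levels are FPKM, and log2 changes with their SE are on the log2(FPKM + 1) scale, which understates the change of low genes. A gene is called changed where the limma p, adjusted by Benjamini-Hochberg over the 12204 genes tested, was below 0.05. Nothing in the labels makes the replicates separate cultures, so a p measures only how far these libraries spread, and that spread may be technical. The read depth behind the values is unknown. Over all genes the median log2 change was -0.01 in XG1 and -0.09 in AMO1 at 100 nM, and -0.19 in XG1 and -0.18 in AMO1 at 1000 nM. Changes at 1000 nM are therefore also given with the medians of all libraries set equal, here called centred. Such values stand for the members and, of other genes, for those whose call centring ends and a few with large changes. DDIT3 in AMO1 and ATF3 in XG1 have no centred value.

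**Figure D1:**
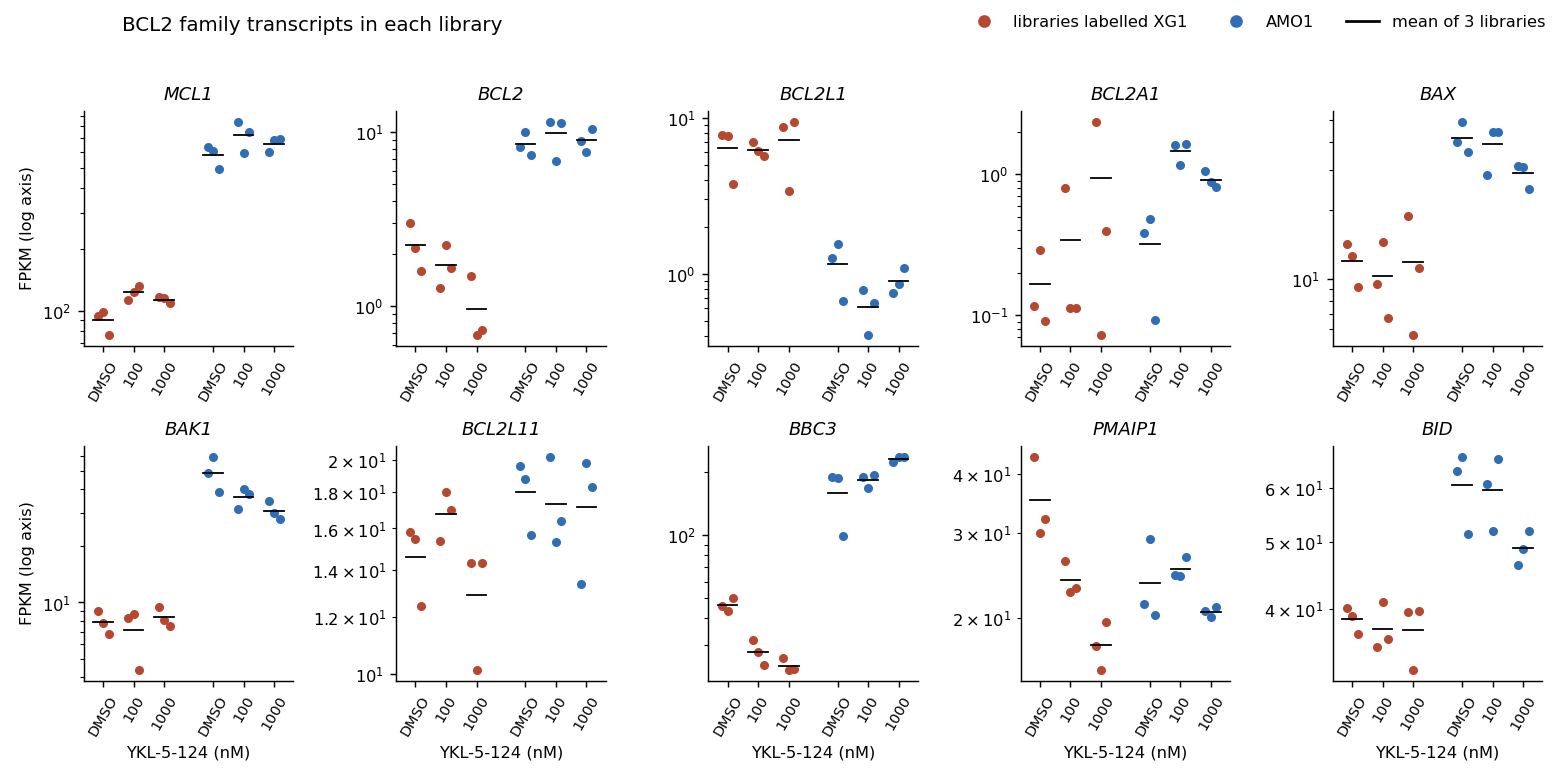
FPKM (log axis) of the 10 BCL2 family genes in each library, by dose of YKL in nM, for libraries labelled XG1 (red) and AMO1 (blue); dots are libraries and bars the means of 3. BBC3 is lower at both doses than in DMSO in XG1, and at 1000 nM all 3 AMO1 libraries lie above the 3 in DMSO.

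In DMSO the lines held the family at different levels. The libraries labelled XG1 had less MCL1, BCL2, BAX, BAK1, BBC3 and BID than AMO1, and more BCL2L1 and PMAIP1. Of the 10 members 8 were called, 2 higher and 6 lower in XG1, where 62.7% of all genes tested were called (3458 higher and 4194 lower). The median member differed by -1.10 and the median gene by -0.08. All 8 calls held in the 14 alternative analyses.

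Among the survival genes the lines were opposite in MCL1 and BCL2L1. MCL1 averaged 89.8 ± 12.2 FPKM in XG1 and 578 ± 74.4 FPKM in AMO1 (SD, n = 3 each), a log2 difference of -2.67 ± 0.15. BCL2, the founding member and the target of venetoclax, averaged 2.25 ± 0.705 FPKM in XG1 and 8.52 ± 1.302 FPKM in AMO1 (-1.57 ± 0.22, adjusted p = 4.24e-06). BCL2L1, which encodes BCL-XL, the survival protein of late red cell precursors, went the other way. It averaged 6.38 ± 2.25 FPKM in XG1 and 1.16 ± 0.450 FPKM in AMO1 (1.74 ± 0.28, adjusted p = 1.80e-05). BCL2A1 was near the low end of the scale in both lines, at 0.166 ± 0.108 FPKM in XG1 and 0.319 ± 0.203 FPKM in AMO1, and was not called (adjusted p = 0.636).

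Both effectors were lower in XG1. BAK1 averaged 7.88 ± 1.08 FPKM in XG1 and 49.0 ± 10.5 FPKM in AMO1 (-2.48 ± 0.21, adjusted p = 2.12e-09), and BAX averaged 12.02 ± 2.57 FPKM in XG1 and 41.7 ± 6.69 FPKM in AMO1 (-1.72 ± 0.32, adjusted p = 1.67e-04). Of the BH3-only genes, BBC3 averaged 46.6 ± 3.23 FPKM in XG1 and 158 ± 51.1 FPKM in AMO1 (-1.68 ± 0.19, adjusted p = 1.37e-07). BID, whose protein links death receptors to mitochondria once caspase-8 cuts it, averaged 38.6 ± 1.71 FPKM in XG1 and 60.6 ± 8.05 FPKM in AMO1 (-0.63 ± 0.14, adjusted p = 6.49e-04). PMAIP1 averaged 35.2 ± 7.21 FPKM in XG1 and 23.6 ± 4.92 FPKM in AMO1 (0.56 ± 0.16, adjusted p = 0.00569). BCL2L11, which encodes BIM, averaged 14.6 ± 1.85 FPKM in XG1 and 18.01 ± 2.06 FPKM in AMO1, and these groups overlapped (-0.29 ± 0.18, adjusted p = 0.165). The 44 spike-in RNAs used differed between the lines with an SD of 0.552 log2, an error that replicates do not show, and the BID, PMAIP1 and BCL2L11 differences are about that size or smaller.

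**Figure D2:**
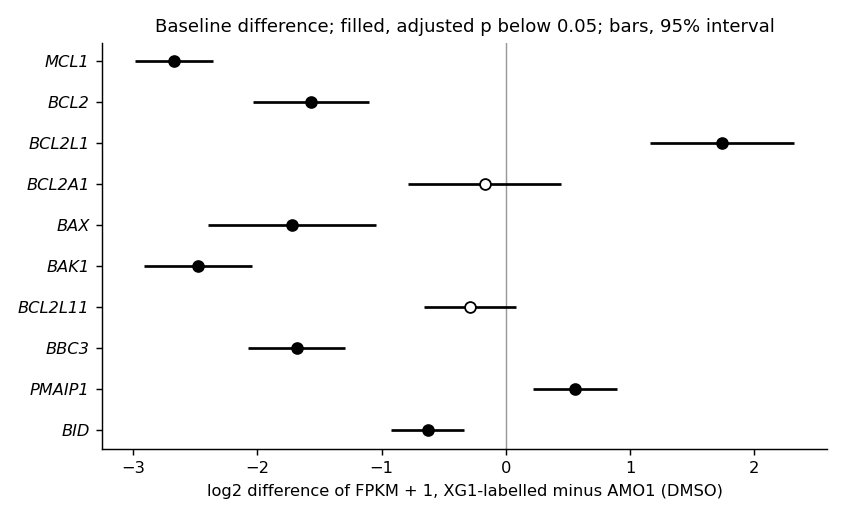
Log2 difference of FPKM + 1 between XG1-labelled and AMO1 libraries in DMSO for each member; dots are estimates, bars 95% intervals, and filled dots have an adjusted p below 0.05. BCL2L1 and PMAIP1 lie to the right of 0 and MCL1 and BAK1 farthest to the left.

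The next comparisons asked how the family responded to YKL in each line. In XG1, 2 BH3-only genes fell, BBC3 at both doses and PMAIP1 at 1000 nM, and BCL2 also fell at 1000 nM. In AMO1 BBC3 rose and BAK1 fell at 1000 nM, and no member was called at 100 nM. The members called were 1 of 10 at 100 nM in XG1 (6.61% of all genes tested), 3 of 10 at 1000 nM in XG1 (17.6%), 0 of 10 at 100 nM in AMO1 (2.2%) and 2 of 10 at 1000 nM in AMO1 (17.1%). With 10 members these counts are too small to set the family apart from all genes. The median member changed by -0.11, -0.09, 0.04 and -0.12 in the same 4 comparisons. At an unadjusted p below 0.05 there were 3, 4, 2 and 2 members, against 20.5%, 31%, 15.1% and 29.9% of all genes.

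Over all genes, calls at 1000 nM were 232 higher and 1920 lower in XG1, and 217 higher and 1874 lower in AMO1. Centred, they were 969 higher and 969 lower in XG1 and 1012 higher and 815 lower in AMO1. Scaled on the spike-ins, they were 233 higher and 1802 lower in XG1 and 211 higher and 1884 lower in AMO1. At 100 nM the split was 53 higher and 215 lower in AMO1, and 289 and 188 centred. Leaving out 1 library gave 1108 to 2561 calls at 1000 nM in XG1, against 2152 with all, and 1187 to 3031 in AMO1, against 2091. At 100 nM it gave 396 to 613 in XG1, against 807, and 100 to 942 in AMO1, against 268. The highest AMO1 count at either dose came without DMSO replicate 3. The lowest count at 1000 nM came without DMSO replicate 1 in XG1 and without DMSO replicate 2 in AMO1, and at 100 nM without DMSO replicate 2 in XG1 and without 100 nM replicate 2 in AMO1. The doses within a line share their DMSO libraries, so likeness between doses is no independent repeat.

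**Figure D3:**
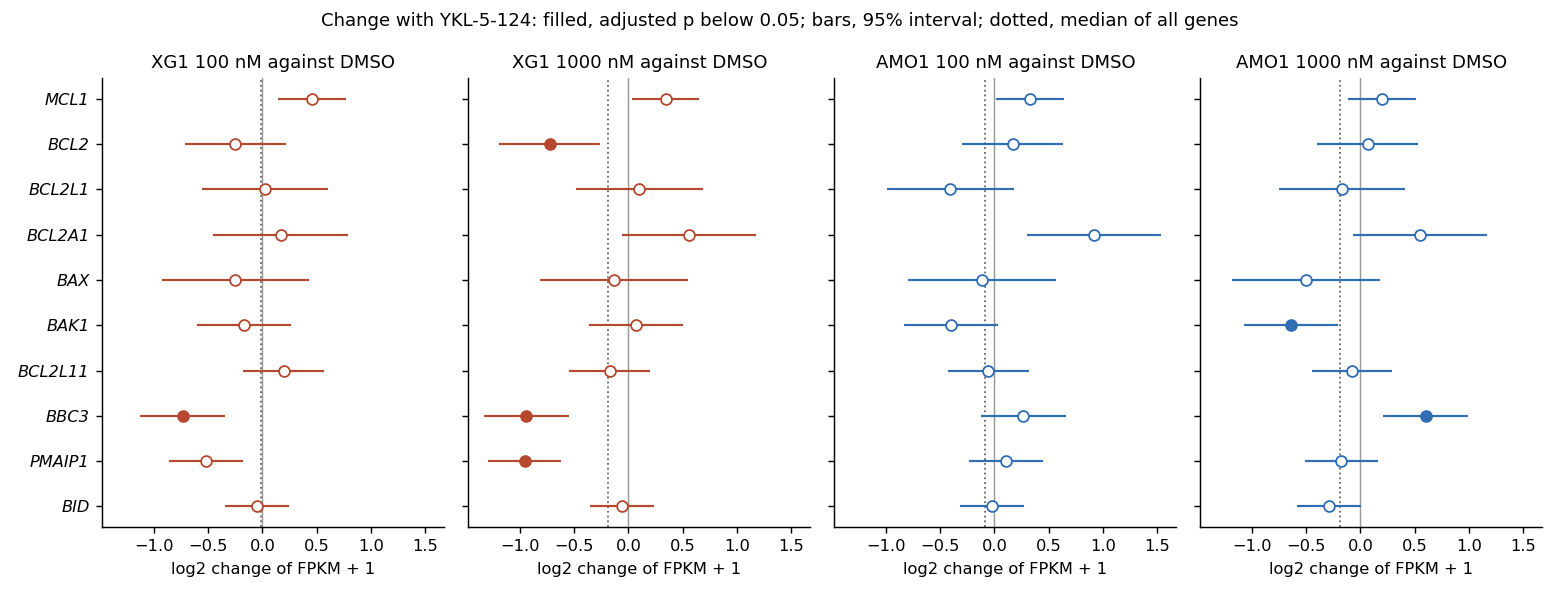
Log2 change of FPKM + 1 against DMSO for each member in 4 comparisons; dots are estimates, bars 95% intervals, filled dots have an adjusted p below 0.05, and the dotted line is the median of all genes. BBC3 lies left of 0 in both XG1 panels and right of 0 at 1000 nM in AMO1.

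BBC3 encodes PUMA, a BH3-only protein that binds all main survival proteins of the family. In XG1 its 3 libraries held 46.1, 43.6 and 50.03 FPKM in DMSO, 31.5, 27.8 and 23.9 FPKM at 100 nM, and 25.9, 22.7 and 22.9 FPKM at 1000 nM. Every treated library lay below every DMSO library. The log2 change was -0.73 ± 0.19 at 100 nM (adjusted p = 0.0213) and -0.94 ± 0.19 at 1000 nM (adjusted p = 0.00191; centred -0.68, adjusted p = 0.0115). Mean FPKM at 1000 nM was 0.511 of that in DMSO. The 1000 nM call held in all 14 alternatives. The 100 nM call ended with low genes kept in (adjusted p = 0.0549), without 100 nM replicate 2 (0.0537) or 3 (0.102), and without DMSO replicate 1 (0.0622), 2 (0.0534) or 3 (0.0808).

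In AMO1 BBC3 held 188, 187 and 99.1 FPKM in DMSO, 189, 167 and 192 FPKM at 100 nM, and 221, 236 and 234 FPKM at 1000 nM. The libraries at 1000 nM were all above those in DMSO, and DMSO replicate 3 was the lowest of the 9. The change was 0.26 ± 0.19 at 100 nM (adjusted p = 0.556) and 0.60 ± 0.19 at 1000 nM (adjusted p = 0.0317; centred 0.90, adjusted p = 0.00206). Without DMSO replicate 3 the 1000 nM value was 0.30 (adjusted p = 0.0819). The call ended in 7 of 14 alternatives, among them without 1000 nM replicate 1, 2 or 3 (adjusted p = 0.0697, 0.0946 and 0.0768), with low genes kept in (0.0755), and fitted on the compared libraries alone (0.169).

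The responses of BBC3 differed between the lines. At 1000 nM the XG1 change minus the AMO1 change was -1.54 ± 0.26 (adjusted p = 0.00598). BBC3 was the 1 member of 10 called in this test, against 0.68% of all genes (40 with a higher and 43 with a lower response in XG1). The call held in all 20 alternatives, with values of -1.70 to -1.24 and adjusted p from 9.72e-04 to 0.0272. At 100 nM the difference was -0.998 ± 0.264 and was not called (adjusted p = 0.165; centred -1.17, 0.0330). There 0 of 10 members were called, against 0.156% of all genes, and 2 members, BBC3 and PMAIP1, had an unadjusted p below 0.05.

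PMAIP1 encodes NOXA, which binds MCL1 and BCL2A1 proteins and speeds the breakdown of MCL1. Its XG1 libraries held 43.4, 30.0 and 32.1 FPKM in DMSO, 26.3, 22.6 and 23.1 FPKM at 100 nM, and 17.4, 15.5 and 19.6 FPKM at 1000 nM. The 3 groups of libraries did not overlap. At 1000 nM PMAIP1 fell by 0.96 ± 0.16 on the log2 scale (adjusted p = 5.67e-04; centred -0.70, adjusted p = 0.00223), to 0.497 of the mean FPKM in DMSO, and this call held in all 14 alternatives. At 100 nM the change was -0.52 ± 0.16 and was not called (adjusted p = 0.0616), although it was when centred (adjusted p = 0.0202) and after quantile normalization (0.0408).

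In AMO1 PMAIP1 held 21.4, 29.3 and 20.2 FPKM in DMSO, 24.6, 24.5 and 26.7 FPKM at 100 nM, and 20.6, 20.0 and 21.1 FPKM at 1000 nM. The DMSO libraries spanned the treated ones at 1000 nM. The change was 0.11 ± 0.16 at 100 nM (adjusted p = 0.848) and -0.17 ± 0.16 at 1000 nM (adjusted p = 0.531), and the sign at 1000 nM turned when centred (0.12). Between the lines the PMAIP1 response differed by -0.78 ± 0.23 at 1000 nM, which was not called (adjusted p = 0.137; centred 0.0410; quantile normalized 0.0480). A fall called in XG1 alone is therefore not shown to be a difference between the lines.

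**Figure D4:**
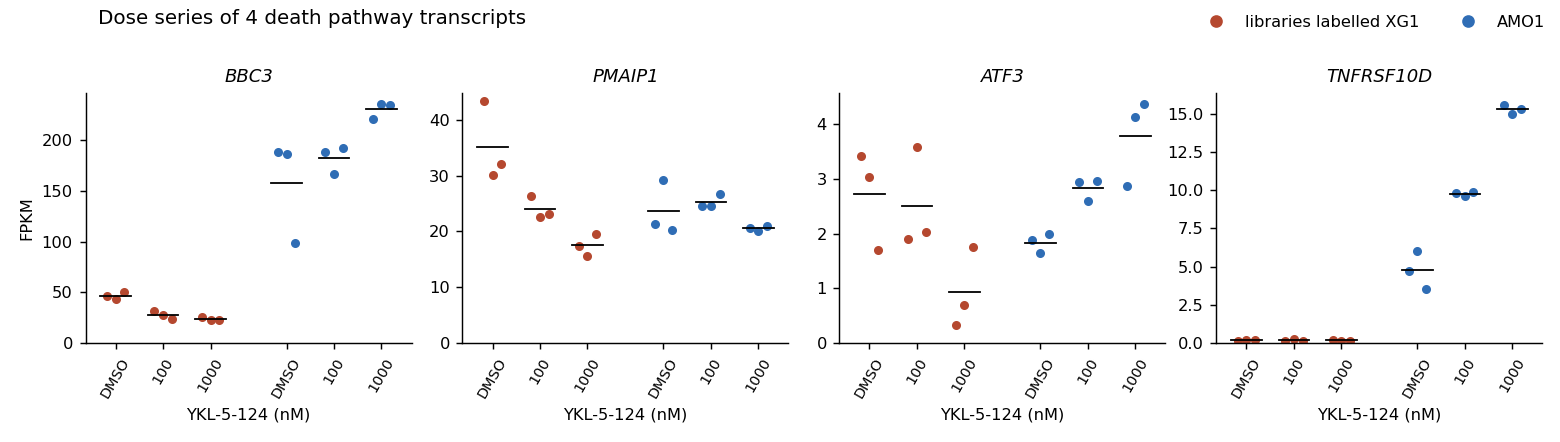
FPKM (linear axes from 0) of BBC3, PMAIP1, ATF3 and TNFRSF10D in each library by dose in nM, for libraries labelled XG1 (red) and AMO1 (blue), with bars for the mean of 3. BBC3 at 1000 nM averages 23.8 FPKM in XG1 and 231 FPKM in AMO1; TNFRSF10D is near 0 in all XG1 libraries.

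The remaining BH3-only members were not called in a comparison with DMSO. BCL2L11 lay between 10.1 and 18.03 FPKM in the 9 XG1 libraries, and between 13.4 and 20.2 FPKM in AMO1. Its changes were 0.20 ± 0.18 at 100 nM and -0.17 ± 0.18 at 1000 nM in XG1, and -0.06 ± 0.18 and -0.08 ± 0.18 in AMO1. Centred, the 1000 nM values turned to 0.0864 in XG1 and 0.21 in AMO1. The 95% interval at 1000 nM ran from -0.54 to 0.20 in XG1 and from -0.45 to 0.29 in AMO1. An exon of BCL2L11 overlaps MIR4435-2HG on the other strand in GENCODE 29, and that gene was listed at 108 to 167 FPKM in XG1 and 153 to 315 FPKM in AMO1. The sources used here do not say whether reads were counted by strand, so BCL2L11 levels are uncertain.

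BID ranged from 32.5 to 40.8 FPKM in XG1 and from 46.4 to 66.7 FPKM in AMO1. Its changes in XG1 were -0.05 ± 0.14 at 100 nM and -0.06 ± 0.14 at 1000 nM, with intervals that stayed within -0.35 and 0.25 (centred 0.20 at 1000 nM). In AMO1 they were -0.02 ± 0.14 and -0.29 ± 0.14 (adjusted p = 0.172 at 1000 nM), and the 1000 nM value was 0.00 when centred. Without DMSO replicate 3 it was -0.40 and called (adjusted p = 0.0292).

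Among the survival genes MCL1 averaged higher at both doses than in DMSO in both lines, without being called. XG1 libraries held 94.4, 99.1 and 76.0 FPKM in DMSO, 114, 123 and 133 FPKM at 100 nM, and 116, 115 and 109 FPKM at 1000 nM, so both treated groups lay above DMSO without overlap. The change was 0.46 ± 0.15 at 100 nM (adjusted p = 0.0737; centred 0.46, 0.0425) and 0.34 ± 0.15 at 1000 nM (adjusted p = 0.122; centred 0.60, 0.00871). Quantile normalization also gave a call at both doses, with 0.63 at 100 nM (adjusted p = 0.00195) and 0.64 at 1000 nM (0.00123).

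In AMO1 MCL1 held 632, 608 and 493 FPKM in DMSO, 844, 592 and 752 FPKM at 100 nM, and 601, 685 and 692 FPKM at 1000 nM. The groups overlapped. The change was 0.33 ± 0.15 at 100 nM (adjusted p = 0.295) and 0.20 ± 0.15 at 1000 nM (adjusted p = 0.421; centred 0.49, 0.0288). No MCL1 value in any setting was below 0 in a comparison with DMSO. The lines' responses of MCL1 differed by 0.15 ± 0.21 at 1000 nM, with an interval from -0.29 to 0.59. Libraries of 3′ ends do not tell the long MCL1 isoform, which protects cells, from the short one, which does not.

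BCL2 in XG1 held 2.99, 2.16 and 1.59 FPKM in DMSO, 1.26, 2.25 and 1.65 FPKM at 100 nM, and 1.49, 0.682 and 0.730 FPKM at 1000 nM. All libraries at 1000 nM lay below all in DMSO, at levels of a few FPKM or less. The change was -0.25 ± 0.22 at 100 nM (adjusted p = 0.603) and -0.72 ± 0.22 at 1000 nM (adjusted p = 0.0303). The 1000 nM call ended in 9 of 14 alternatives, among them when centred (-0.47, adjusted p = 0.0604), with a pseudocount of 5 FPKM (-0.28, 0.143), with low genes kept in (0.0702), fitted on the compared libraries alone (0.0952), and without 1000 nM replicate 2 (0.120) or 3 (0.0764) or DMSO replicate 1 (0.162) or 2 (0.0740). In AMO1 BCL2 ranged from 6.85 to 11.5 FPKM over the 9 libraries, and its changes were 0.17 ± 0.22 at 100 nM and 0.07 ± 0.22 at 1000 nM (centred 0.36). The difference between the lines at 1000 nM, -0.79 ± 0.32, was not called (adjusted p = 0.362).

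BCL2L1 and BCL2A1 gave no call. BCL2L1 spread from 3.38 to 9.45 FPKM over the XG1 libraries, with changes of 0.02 ± 0.28 at 100 nM and 0.10 ± 0.28 at 1000 nM (centred 0.36), and from 0.404 to 1.56 FPKM in AMO1, with -0.41 ± 0.28 and -0.17 ± 0.28 (centred 0.12). Its 3′ reads do not separate the long and short isoforms, whose proteins act oppositely. BCL2A1, an NF-kappaB target that protects lymphoid and myeloid cells, held 0.383, 0.484 and 0.0919 FPKM in AMO1 in DMSO, 1.61, 1.17 and 1.65 FPKM at 100 nM, and 1.06, 0.886 and 0.814 FPKM at 1000 nM. BCL2A1 reached the filter of 1 FPKM only in the mean of AMO1 at 100 nM, so that group had to stand above others, and its values are given as a description. The AMO1 changes were 0.91 ± 0.29 at 100 nM (centred 1.09) and 0.55 ± 0.29 at 1000 nM (centred 0.84). In XG1 its 9 values lay between 0.0721 and 2.37 FPKM and the groups overlapped. The change at 1000 nM was 0.56 ± 0.29 (centred 0.82), with 1 library, replicate 1, at 2.37 FPKM.

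Of the effectors, BAK1 was called lower at 1000 nM in AMO1. It held 48.8, 59.5 and 38.6 FPKM in DMSO, 31.3, 40.2 and 37.9 FPKM at 100 nM, and 34.7, 29.9 and 27.7 FPKM at 1000 nM in that line. All 1000 nM libraries were below all DMSO libraries. The change was -0.40 ± 0.21 at 100 nM (adjusted p = 0.374) and -0.64 ± 0.21 at 1000 nM (adjusted p = 0.0394). That call held in 4 of 14 alternatives. It ended when centred (-0.34, adjusted p = 0.246), when quantile normalized (-0.37, 0.227), at a pseudocount of 0.1 FPKM (0.0585), with low genes kept in (0.0922), fitted on the compared libraries alone (0.0699), and without 1000 nM replicate 1, 2 or 3 (0.0564, 0.110 and 0.121) or DMSO replicate 1 or 2 (0.0986 and 0.193).

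In XG1 BAK1 lay between 4.37 and 9.46 FPKM, and its change at 1000 nM was 0.07 ± 0.21 (centred 0.33). The lines' responses of BAK1 differed by 0.71 ± 0.29 at 1000 nM, which was not called (adjusted p = 0.384). BAX held 14.3, 12.6 and 9.21 FPKM in XG1 in DMSO, 9.50, 14.6 and 6.75 FPKM at 100 nM, and 19.0, 5.66 and 11.1 FPKM at 1000 nM, a spread that covers any trend. In AMO1 it held 39.9, 49.1 and 36.1 FPKM in DMSO, 28.5, 44.1 and 44.3 FPKM at 100 nM, and 31.3, 31.0 and 24.9 FPKM at 1000 nM. The libraries at 1000 nM lay below DMSO without overlap, but the change of -0.50 ± 0.32 was not called (adjusted p = 0.326; centred -0.21). BAX had the largest SE of the 10 members, and its interval at 1000 nM in XG1 ran from -0.81 to 0.55 around a change of -0.13 (centred 0.13).

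The doses were then set against each other. Between 1000 and 100 nM 0 of 10 members were called in XG1, against 0.139% of all genes, and 0 of 10 in AMO1, against 0.18%. In XG1, PMAIP1 (-0.44 ± 0.16, adjusted p = 0.201) and BCL2 (-0.48 ± 0.22, adjusted p = 0.295) were the 2 members with an unadjusted p below 0.05, and in AMO1 there were 0. BBC3 differed between these doses by -0.21 ± 0.19 in XG1 (adjusted p = 0.607) and 0.34 ± 0.19 in AMO1 (adjusted p = 0.565).

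The rest of the apoptosis machinery was read from 6 lists of 76 genes, of which 62 were tested. In XG1 the calls were 3 higher and 6 lower at 100 nM and 2 higher and 14 lower at 1000 nM. In AMO1 they were 2 higher and 2 lower at 100 nM and 4 higher and 16 lower at 1000 nM. The falls counted at 1000 nM include BCL2L2 in XG1 and TP63 in AMO1, which passed the filter only through groups with higher levels. Of all genes tested, 6.61% and 17.6% were called in XG1 and 2.2% and 17.1% in AMO1 at these doses, and the same shares stand behind the counts of each list below. Leaving out 1 library gave 7 to 18 lower at 1000 nM in XG1 and 7 to 20 in AMO1. Centred, the 1000 nM splits were 4 higher and 8 lower in XG1 and 9 higher and 8 lower in AMO1. Scaled on the spike-ins, they were 2 higher and 14 lower in XG1 and 3 higher and 16 lower in AMO1. The balance of directions thus changes when the medians are set equal, and stays much the same with spike-in scaling. Between doses 0 of 62 were called in either line.

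**Figure D5:**
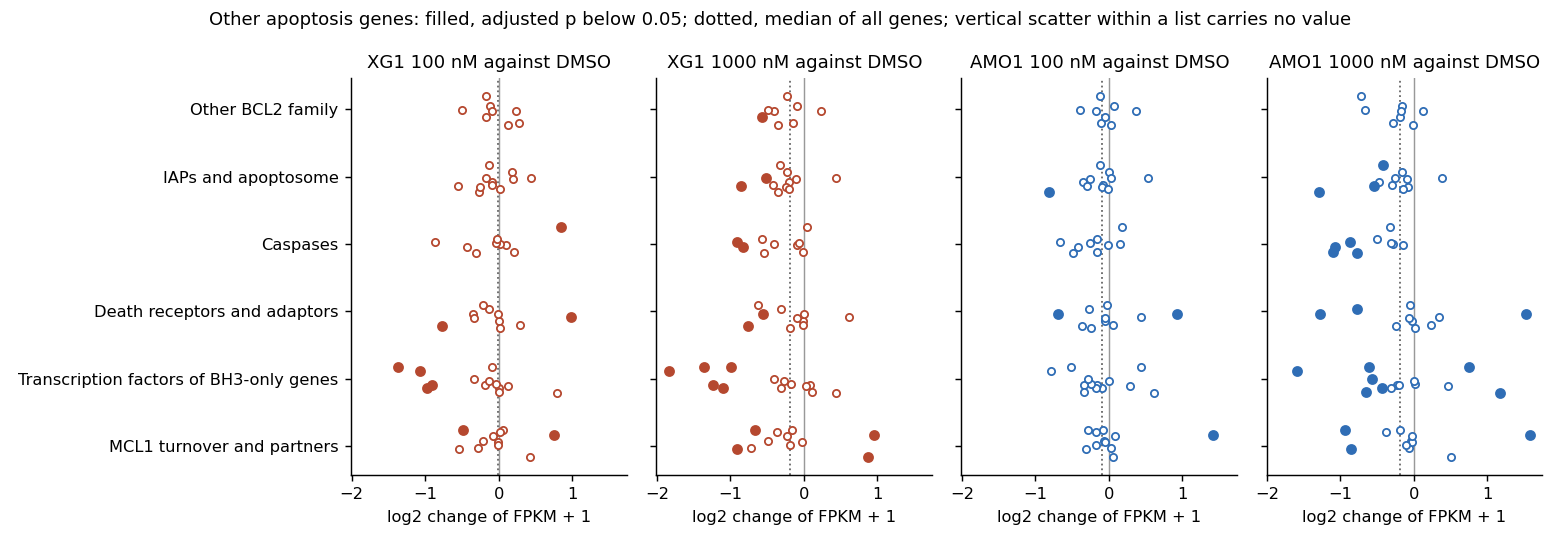
Log2 change of FPKM + 1 against DMSO for the 62 tested genes of 6 apoptosis lists; each dot is a gene, filled where the adjusted p was below 0.05, and the dotted line is the median of all genes. Filled dots left of 0 outnumber those right of it at 1000 nM in both lines (centred, AMO1 has 9 higher and 8 lower).

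The list with the most genes tested held 13 transcription factors that act on BH3-only genes. In XG1, 4 of 13 fell at 100 nM and 5 of 13 at 1000 nM, and 0 rose (list median -0.13 and -0.30, all genes -0.01 and -0.19; 6.61% and 17.6% of all genes called). With 1 library left out there were 2 to 3 calls at 100 nM and 4 to 5 at 1000 nM. ATF4, the main factor of the amino acid stress response, averaged 46.1 ± 2.50 FPKM at 1000 nM and 119 ± 6.27 FPKM in DMSO (-1.35 ± 0.20, adjusted p = 1.63e-04). Its target DDIT3, which encodes CHOP, averaged 12.4 ± 0.459 FPKM at 1000 nM and 27.8 ± 0.915 FPKM in DMSO (-1.10 ± 0.14, adjusted p = 3.80e-05; centred -0.85). MYC fell by 1.84 ± 0.29 (centred -1.58) and E2F1, a factor of S phase entry, by 1.24 ± 0.25 on the log2 scale. These 4 calls at 1000 nM held in all 14 alternatives, as did those of ATF4 (-1.37 ± 0.20) and DDIT3 (-0.98 ± 0.14) at 100 nM. The other call at 1000 nM was ATF3 (-0.99 ± 0.25, adjusted p = 0.00898), whose values in the alternatives were not kept. For ATF4, DDIT3, E2F1 and MYC the difference between the lines' responses at 1000 nM was not called (adjusted p = 0.318, 0.149, 0.236 and 0.917).

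In AMO1 5 of the 13 fell and 2 rose at 1000 nM, and 0 were called at 100 nM (17.1% and 2.2% of all genes). Leaving out 1 library gave 1 to 7 calls at 1000 nM. TP63, 1 of the 5 falls, averaged 0.901 ± 0.0755 FPKM at 1000 nM and 1.99 ± 0.324 FPKM in DMSO. It reached the filter of 1 FPKM only in AMO1 in DMSO and at 100 nM, which favours a fall at 1000 nM. DDIT3 was also among the 5, with a change of -0.43 ± 0.14 (adjusted p = 0.0437). Its centred value and its other alternatives were not kept, so whether this call holds is not known. MYC averaged 12.5 ± 1.96 FPKM at 1000 nM and 41.6 ± 18.01 FPKM in DMSO (-1.59 ± 0.29, adjusted p = 0.00124; centred -1.30; -1.27 without DMSO replicate 3), a call that held in all 14 alternatives. ATF4 (-0.61 ± 0.20, adjusted p = 0.0394; centred -0.32, 0.283; -0.96 without DMSO replicate 3), JUN (-0.57 ± 0.18; centred -0.27, 0.243) and TP63 (-0.65 ± 0.16; centred -0.36, 0.131) fell, and ATF3 (0.74 ± 0.25, adjusted p = 0.0423) and FOS (1.16 ± 0.36, adjusted p = 0.0328) rose; these 5 calls held in 4 to 11 of 14 alternatives. The ATF4 change was -0.42 without DMSO replicate 1 (adjusted p = 0.206) and -0.46 without DMSO replicate 2 (0.201). Its AMO1 libraries at 1000 nM, at 235 to 275 FPKM, overlapped those in DMSO, where replicate 3 was at 242 FPKM. ATF3, a stress-induced factor, held 3.42, 3.04 and 1.70 FPKM in XG1 in DMSO, 1.90, 3.59 and 2.03 FPKM at 100 nM, and 0.327, 0.687 and 1.75 FPKM at 1000 nM. In AMO1 it held 1.87, 1.64 and 1.99 FPKM, then 2.95, 2.60 and 2.95 FPKM, then 2.87, 4.13 and 4.37 FPKM at the same doses. Its responses at 1000 nM differed between the lines by -1.73 ± 0.35 (adjusted p = 0.0195), a call that held in 11 of 20 alternatives.

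Genes of MCL1 turnover and binding gave 4 calls of 11 in XG1 and 3 of 11 in AMO1 at 1000 nM, against 17.6% and 17.1% of all genes. IER3, whose product can bind MCL1, rose in both lines: it averaged 42.03 ± 9.64 FPKM at 1000 nM and 20.8 ± 1.37 FPKM in DMSO in XG1 (0.95 ± 0.19, adjusted p = 0.00190), and 49.7 ± 0.731 FPKM at 1000 nM and 16.4 ± 4.34 FPKM in DMSO in AMO1 (1.58 ± 0.19, adjusted p = 2.04e-05). USP13, a deubiquitinase that stabilizes MCL1, fell by 0.91 ± 0.18 in XG1 and by 0.86 ± 0.18 in AMO1 on the log2 scale. DYNLL1, a dynein light chain that binds BIM, fell by 0.66 ± 0.14 in XG1 (centred -0.40, adjusted p = 0.0778) and by 0.94 ± 0.14 in AMO1. FBXW7, the ubiquitin ligase subunit that marks MCL1 and MYC, rose in XG1 (0.87 ± 0.22, adjusted p = 0.00935); without DMSO replicate 1 the change was 0.73 and not called (adjusted p = 0.0652). At 1000 nM the calls of IER3 and USP13 in both lines, and of DYNLL1 in AMO1, held in all 14 alternatives.

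In the death receptor list 1 of 10 genes rose and 2 fell in AMO1 at 1000 nM, and 0 rose and 2 fell in XG1, against 17.1% and 17.6% of all genes called. There were 3 calls in AMO1 and 0 to 3 in XG1 when 1 library was left out. TNFRSF10D, a decoy receptor for the death ligand TRAIL, held 4.72, 6.00 and 3.52 FPKM in AMO1 in DMSO, 9.79, 9.60 and 9.87 FPKM at 100 nM, and 15.6, 15.0 and 15.3 FPKM at 1000 nM. The doses did not overlap. It rose by 0.93 ± 0.16 at 100 nM (adjusted p = 0.00334) and 1.53 ± 0.16 at 1000 nM (adjusted p = 4.98e-06). In XG1 all 9 libraries were at 0.273 FPKM or less. The transcript was near the lowest listed values there, so no XG1 response could be measured, and the difference of the responses at 1000 nM, -1.53 ± 0.23 (adjusted p = 0.00140), restates the AMO1 change. This call ended with a pseudocount of 0.1 FPKM (adjusted p = 0.109).

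CFLAR, which encodes the caspase-8 inhibitor FLIP, averaged 13.2 ± 0.454 FPKM at 1000 nM and 33.3 ± 2.26 FPKM in DMSO in AMO1 (-1.27 ± 0.15, adjusted p = 2.04e-05; centred -0.98). FADD, the adaptor that brings caspase-8 to death receptors, fell there by 0.77 ± 0.17 on the log2 scale. In XG1 CFLAR fell by 0.55 ± 0.15 (centred -0.29, adjusted p = 0.234) and TNFSF10, which encodes TRAIL, by 0.76 ± 0.23 (centred -0.51, adjusted p = 0.123). RIPK1, a kinase of the death receptor complex, rose at 100 nM in XG1 (0.99 ± 0.24, adjusted p = 0.0160). Without 100 nM replicate 1 or DMSO replicate 3 the change was 0.93 and not called (adjusted p = 0.0632 and 0.0610).

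Inhibitors of apoptosis and apoptosome genes gave 2 lower of 11 in XG1 and 3 lower of 11 in AMO1 at 1000 nM, and 0 higher, against 17.6% and 17.1% of all genes called. The counts ran from 1 to 3 in XG1 and from 1 to 6 in AMO1 when 1 library was left out. BIRC3, which encodes the inhibitor cIAP2, averaged 10.9 ± 0.628 FPKM at 1000 nM and 28.4 ± 4.68 FPKM in DMSO in AMO1 (-1.29 ± 0.16, adjusted p = 3.81e-05; centred -0.999). HTRA2, a mitochondrial protease that counters such inhibitors, averaged 7.02 ± 1.44 FPKM at 1000 nM and 13.3 ± 0.422 FPKM in DMSO in XG1 (-0.85 ± 0.17, adjusted p = 0.00245). Caspase genes gave 2 lower of 9 in XG1 and 4 lower of 9 in AMO1 at that dose, against the same shares of all genes, and 0 to 3 in XG1 and 1 to 4 in AMO1 when 1 library was left out. CASP6, an executioner caspase, fell by 1.08 ± 0.25 on the log2 scale in AMO1, where its call held in all 14 alternatives, and by 0.82 ± 0.25 in XG1, where it was lost when centred (adjusted p = 0.0797). CASP8 rose at 100 nM in XG1 (0.85 ± 0.24, adjusted p = 0.0356), with the call kept in 8 of 14 alternatives. At 1000 nM in XG1 its change was 0.04 ± 0.24 and was not called (adjusted p = 0.953).

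Of 13 other genes named for the BCL2 family, 8 were tested, and BCL2L2, which encodes BCL-W, was the 1 call. It averaged 0.383 ± 0.161 FPKM at 1000 nM and 1.08 ± 0.472 FPKM in DMSO in XG1 (-0.57 ± 0.17, adjusted p = 0.0277; centred -0.32, 0.175). XG1 in DMSO was the only group whose mean brought BCL2L2 past the filter of 1 FPKM. That favours a fall against it, so its values are given as a description. The call was lost in 7 of 14 alternatives, and all but the run without a filter kept this selection. In DMSO 5 of the 8 were higher and 2 lower in XG1 than in AMO1. BNIP3, a mitophagy receptor, averaged 21.9 ± 1.23 FPKM in XG1 and 0.187 ± 0.0588 FPKM in AMO1, and its relative BNIP3L, which clears mitochondria from maturing red cells, averaged 26.2 ± 2.27 FPKM in XG1 and 6.52 ± 0.250 FPKM in AMO1. BIK, a BH3-only gene, averaged 0.987 ± 0.925 FPKM in XG1 and 92.6 ± 17.5 FPKM in AMO1 (-5.64 ± 0.31, adjusted p = 1.09e-11). These 3 were named after their values were seen.

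Genes whose pattern over the 6 group means was most like that of a called member were found by the root mean square difference of log2(FPKM + 1), each gene first set to its own mean. The search covered 10095 candidates (10096 for PMAIP1) and not all genes tested. A gene outside the candidates could be nearer and would not be named. Among the candidates, nearest to BBC3 were ADCK3 (0.221), ANKZF1 (0.223) and WDR54 (0.233), where the median of all candidates was 1.31. Nearest to PMAIP1 were PMS1 (0.0673), USE1 (0.0702) and PAQR4 (0.0800), with a median of 0.465. For BCL2 they were CCNE1 (0.0362), TTC19 (0.0650) and PRUNE (0.112), and for BAK1 CCND1 (0.0797), ANKRD34A (0.0805) and TSPAN33 (0.0942). The measure is over 6 means and carries no test.

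Overlapping genes limit what some rows hold. In GENCODE 29 exons of MCL1 overlap ADAMTSL4-AS1, those of BCL2L1 overlap ABALON, those of BAK1 overlap GGNBP1 and those of BBC3 overlap MIR3190 and MIR3191. ADAMTSL4-AS1 was listed at no more than 1.09 FPKM in XG1 and 3.12 FPKM in AMO1, and GGNBP1, MIR3190 and MIR3191 at 0.133 FPKM or less in every library. ABALON was at 1.17 to 2.29 FPKM in XG1 and 0.0881 to 0.324 FPKM in AMO1. BAK1 also has the processed pseudogenes BAK1P1 and BAK1P2, and reads shared with them cannot be told apart here.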

How the data were processed

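RNA of cultures labelled XG1 and AMO1 was measured after 6 h in 6 groups of 3 libraries. Per the labels' protocols the libraries were QuantSeq, which reads the 3′ ends of polyadenylated RNA. HISAT2, Cuffnorm and the build hg19 are named for the authors' processing, per the submitters' processing notes; the sources used here give no versions, annotation, strand setting or read counts. The deposited values are FPKM by the authors, a unit taken from Cuffnorm in those notes, since the headers say only expression. Since FPKM is scaled to transcript length, and 3′ end reads do not grow with it, changes and line differences were compared within a gene. The cut-offs of 1 and 10 FPKM and the sums over markers do cross genes, so this limit applies to them. No depth or counting interval could be had. Tables held 92 ERCC spike-ins, which were left out of the tests. The summed FPKM of a library was 741443 to 957143 in XG1 and 1462900 to 2072840 in AMO1, and 9284 to 10571 genes were at 1 FPKM or more. No value was 0, the commonest low value was 0.0745 to 0.133 FPKM, and 0 library pairs were identical.

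The 12204 genes whose mean reached 1 FPKM in 1 group or more were tested with limma 3.58.1 (R 4.3.3, statmod 1.5.0), trend and robust, on log2(FPKM + 1), with 1 fit over all 18 libraries, two-sided, Benjamini-Hochberg adjusted over all genes tested, threshold 0.05. The script was tested on simulated data. The 9 comparisons set both doses against DMSO and the doses against each other in either line, XG1 responses against AMO1 responses at both doses, and the lines against each other in DMSO. Named are the 10 members and, from each list, up to 4 called genes per direction and comparison with DMSO. The members and lists were chosen with earlier results of these data known. Alternatives were pseudocounts of 0.1 and 5 FPKM, no filter, median centring, quantile normalization, scaling on 44 spike-ins with a log2 above 3, a replicate block, only the libraries compared, and leaving out each library. The values of 1 listed gene are not reported here.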

Additional observations from a re-analysis of the deposited data

Results flagged for a closer look

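Groups of 3 libraries were not tested for single outlying libraries. At 1000 nM limma's test of the difference between the lines' responses called 3 genes of the apoptosis machinery, and in 1 of them, TNFRSF10D, no XG1 response could be measured. BBC3 had a log2 difference of -1.54 (XG1 change minus AMO1 change): it was 23.8 ± 1.80 FPKM at 1000 nM and 46.6 ± 3.23 FPKM in DMSO in XG1, and 231 ± 8.04 FPKM at 1000 nM and 158 ± 51.1 FPKM in DMSO in AMO1. All 3 treated XG1 libraries lay below their DMSO libraries, and all 3 treated AMO1 libraries lay above theirs. The BBC3 rise in AMO1 was 0.30 without DMSO replicate 3 (adjusted p = 0.0819), and its call held in 7 of 14 alternatives. The call of the BBC3 difference held in all 20. TNFRSF10D differed by -1.53, with 15.3 ± 0.302 FPKM at 1000 nM and 4.75 ± 1.24 FPKM in DMSO in AMO1 and at most 0.273 FPKM in XG1, near the lowest listed values, and its call ended with a pseudocount of 0.1 FPKM (adjusted p = 0.109). ATF3 differed by -1.73, with 3.79 ± 0.804 FPKM at 1000 nM and 1.84 ± 0.175 FPKM in DMSO in AMO1, and treated XG1 libraries of 0.327 to 1.75 FPKM. Its change in XG1 was -0.99 ± 0.25 (adjusted p = 0.00898), with no alternative values kept. The call of the ATF3 difference held in 11 of 20 alternatives, and that of its rise in AMO1 in 5 of 14. In XG1, where erythroid markers were high and plasma cell markers low, the part of the cells' type in these differences cannot be told apart from the line.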

How the results depend on the processing

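Limits come from 3 libraries a group, an unknown depth and the scaling. Members called at 1000 nM were 3 in XG1 and 2 in AMO1. Centred, 3 members were called at 100 nM and 4 at 1000 nM in XG1, against 1499 and 1938 of 12204 genes. In AMO1 there were 1 and 3, against 477 and 1827. BCL2A1, which passed the filter only through AMO1 at 100 nM, was the 1 centred call there. It was also among the centred calls at 1000 nM in both lines, and these calls of BCL2A1 are given only as a description. The differences of responses at 100 and 1000 nM had 1 and 2 centred calls, against 66 and 191. Quantile normalization gave 3 at 100 nM and 5 at 1000 nM in XG1, against 1878 and 2383. In AMO1 at 1000 nM it gave 1, against 1872, and in the difference at 1000 nM 2, against 216. Without the filter on low genes 0 were called at 100 nM in XG1 and 0 at 1000 nM in AMO1, against 560 and 1585 of 26249 genes. AMO1 at 1000 nM had 1 call with a pseudocount of 0.1 FPKM and 1 with only the libraries compared, against 1866 and 1568 genes. Leaving out 1 library gave 0 to 1 calls at 100 nM in XG1, against 396 to 613 genes. At 1000 nM in AMO1 it gave 0 to 2, against 1187 to 3031 genes. The cause of these changes was not tested, save that no filter means more genes tested. All 8 calls between the lines in DMSO held in every alternative run.

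Replicate numbers showed no pairing of the libraries. Same-number deviations correlated at -0.0519 to 0.0316 in XG1 and -0.124 to 0.0908 in AMO1, and 0 of 9 pairs per line exceeded 0.1. With so few libraries this cannot exclude a pairing, and the labels do not settle it. With the replicate block 1 member was called at 1000 nM in AMO1, the BBC3 call there had an adjusted p of 0.0571 and the BCL2 call in XG1 one of 0.0558. Over all genes the block gave 1512 calls at 1000 nM in XG1 and 1454 in AMO1, against 2152 and 2091 without it, and 486 and 123 at 100 nM, against 807 and 268. Of the other alternatives, those that moved a count over all genes by over 1.5 times were centring (1499 calls) and quantile normalization (1878) at 100 nM in XG1, fitting the compared libraries alone at 1000 nM in XG1 (1197), and, at 100 nM in AMO1, pseudocounts of 0.1 (137) and 5 FPKM (453), centring (477), quantile normalization (459) and the compared libraries alone (6). The 83 calls in the difference of responses at 1000 nM became 27 and 201 with pseudocounts of 0.1 and 5 FPKM, 191 centred, 216 quantile normalized, 54 with the compared libraries alone, 38 with the block and 42 to 165 with 1 library left out. The 19 calls at 100 nM ran from 1 to 76 over all alternatives, and the 17 and 22 calls between the doses in XG1 and AMO1 from 0 to 310 and from 2 to 37.

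Signs turned only for uncalled values. Centred, BAX was at 0.0648 (100 nM) in AMO1 and 0.13 (1000 nM) in XG1, BCL2L1 at 0.12 (1000 nM) in AMO1, BCL2L11 at 0.12 and 0.21 (100 and 1000 nM) in AMO1 and 0.0864 (1000 nM) in XG1, BID at 0.16 (100 nM) in AMO1 and 0.20 (1000 nM) in XG1, and PMAIP1 at 0.12 (1000 nM) in AMO1. Quantile normalization gave BAX 0.20 and BCL2L11 0.15 at 1000 nM in XG1, BCL2L11 0.0469 and 0.16 at 100 and 1000 nM in AMO1, BID 0.0205 at 100 nM in AMO1 and 0.0753 and 0.25 at 100 and 1000 nM in XG1, and PMAIP1 0.0911 at 1000 nM in AMO1. Leaving out 1 library, ranges that crossed 0 were, in XG1 at 100 nM, BAK1 -0.32 to 0.10, BCL2A1 -0.0643 to 0.28 and BCL2L1 -0.26 to 0.17; in XG1 at 1000 nM, BAK1 -0.0155 to 0.16, BAX -0.52 to 0.28, BCL2L1 -0.19 to 0.50 and BID -0.10 to 0.0377; in AMO1 at 100 nM, BAX -0.22 to 0.0927, BBC3 -0.0406 to 0.42, BCL2L11 -0.17 to 0.0203 and BID -0.13 to 0.0742; and in AMO1 at 1000 nM, BCL2 -0.0350 to 0.17 and BCL2L11 -0.18 to 0.0807.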
